A study of Mus musculus with 8 samples.

Results

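The IL-1 family is described here through 8 genes, Il1a, Il1b, Il1rn, Il1r1, Il1r2, Il1rap, Il18 and Il18bp, among 20258 rows with a gene symbol. They were taken by symbol, and each had 1 row. All 8 had a value other than 0 in at least 1 library, and all were tested among the 13615 genes whose values were not the same in every library. The samples were bone-marrow derived macrophages of C57BL/6 mice, which are phagocytes grown in culture from marrow precursors. All were kept for 24 h, either without stimulus (2 libraries), with the cytokine IL4 (3 libraries), or with bacterial lipopolysaccharide and interferon gamma together, called LPS plus IFNg (3 libraries). No genotype, age or transgene is given in the labels, and how many mice gave marrow is not given either. The values are the authors' log2 expression values after quantile normalisation, so a difference of 1 is a doubling. Nothing in the labels ties a group's libraries to different animals or cultures. The p-values therefore reflect the spread among these libraries alone, and that spread may be technical.

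IL-1 alpha and IL-1 beta are cytokines that start inflammation by binding IL-1 receptor type 1 (Il1r1), which then recruits the accessory protein Il1rap and signals through MyD88 and IRAK kinases to NF-kB. The family holds its own brakes. IL-1 receptor antagonist (Il1rn) occupies the type 1 receptor without signalling, the type 2 receptor (Il1r2) binds IL-1 without a signalling domain, and IL-18 binding protein (Il18bp) captures IL-18 in solution. IL-1 beta and IL-18 are made as inactive precursors that caspase-1 cuts in inflammasomes, and macrophages are a main source of both.

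The stretches upstream of Il1a, Il1b and Il1rn are shown because these 3 genes rose with LPS plus IFNg against both other groups in every fit that held them. Each run is 250 bases that end just before a RefSeq transcription start, 5′ to 3′ on the gene's strand, from RefSeq on GRCm38.p6; the expression table rests on mm9, and no coordinate was carried between them. Capitals mark the letters of a searched motif. The Il1a stretch is chr2:129309973-129310222 on the minus strand, the Il1b stretch is chr2:129371140-129371389 on the minus strand, and the Il1rn stretch, at the second of its 3 listed starts, is chr2:24345041-24345290 on the plus strand.
Il1a: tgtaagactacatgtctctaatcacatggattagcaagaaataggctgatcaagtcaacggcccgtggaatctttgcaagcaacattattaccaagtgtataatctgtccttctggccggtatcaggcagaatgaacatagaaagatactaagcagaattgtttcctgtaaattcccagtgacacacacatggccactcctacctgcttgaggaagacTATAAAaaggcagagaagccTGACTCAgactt
Il1b: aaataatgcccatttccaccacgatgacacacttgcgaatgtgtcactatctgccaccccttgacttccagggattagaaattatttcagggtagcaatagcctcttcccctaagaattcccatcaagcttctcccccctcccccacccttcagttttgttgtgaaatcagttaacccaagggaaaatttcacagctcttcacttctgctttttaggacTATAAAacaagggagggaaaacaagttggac
Il1rn: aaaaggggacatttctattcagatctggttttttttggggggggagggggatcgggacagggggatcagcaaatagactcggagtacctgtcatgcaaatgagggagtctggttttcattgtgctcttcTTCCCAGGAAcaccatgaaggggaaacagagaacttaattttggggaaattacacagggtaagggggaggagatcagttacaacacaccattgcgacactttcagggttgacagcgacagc
Il1a and Il1b each carried the TATA box letters TATAAA, at -32 to -27 and -31 to -26 from the start, where -1 is the last base before it; 12.4% of 32851 upstream windows of this length held them on either strand. Il1a also held the AP-1 letters TGANTCA at -12 to -6, present in 6.75% of windows. The Il1rn stretch held the letters TTC and GAA with 4 bases between them, the spacing of STAT6 sites, at -121 to -112 (5.85% of windows). At the third Il1rn start the NF-kB letters GGG and TTTCC with 2 bases between them occurred as GGGTTTTTCC at -51 to -42, against 1.41% of windows. The other motifs searched on both strands were GGGA, any base, TT, any base and CC for NF-kB, TTTC repeated after 2 bases for interferon response elements, TTCNNNGAA for STAT factors, TTGCNNAA for C/EBP, and GAGGAAGT and GGGGAAGT for PU.1, and none of these was in the 3 printed stretches. Of the other members, Il18 held the STAT6 letters at -46 to -37 and TATAAA on the other strand at -175 to -170, Il18bp held TTGCNNAA at -49 to -42 (9.56% of windows), Il1r2 held TTCNNNGAA at -111 to -103 (7.02%), Il1r1 held TTGCNNAA at -133 to -126 and GGGGAAGT (1.24%) at -76 to -69 from its first start, and Il1rap held none. The first Il1rn start had TGANTCA at -141 to -135. A match is a description of the sequence and does not mark a bound site. Libraries that read the 3′ end give no start site, so the 3 starts of Il1rn and the 2 of Il1r1 could not be told apart.

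All 8 libraries carried macrophage markers: at least 7 of 10 had a group mean of 5 or more in each group, and Cd163 was listed at 0 in every stimulated library. Between 9967 and 11837 genes stood above 0 in a library, and fewer did in each stimulated library than in the unstimulated ones. Pearson's r across 7284 genes with a mean of at least 5 ranged from 0.839 to 0.928 inside groups and from 0.620 to 0.842 across them; genes are not independent replicates. Summed neutrophil markers (13 of 14 in the table, on a linear scale) were 2605 to 2949 without stimulus, 1421 to 2038 with IL4 and 491.9 to 572.9 with LPS plus IFNg, with Mpo and Prtn3 listed at 0 in the last group. Csf3r, also on that list, had means of 7.65 with LPS plus IFNg, 7.01 without stimulus and 6.32 with IL4. Neutrophils also make IL-1 beta and Il1rn, and their part in the values of these genes was not tested. Dendritic cell markers summed to at most 77.66 and lymphocyte markers to at most 67.09 in any library. Within the dendritic sum, Ccr7 was at 5.38, 4.61 and 3.88 with LPS plus IFNg and at 0 in the other 5 libraries. Zbtb46 was at 4.90, 3.97 and 4.62 with IL4, at 0 and 2.43 without stimulus and at 0 with LPS plus IFNg. The part of dendritic cells in the members' values was not tested. In these bulk samples, fewer cells of a type and less RNA per cell cannot be told apart.

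Il1a, Il1b, Il1rn and Il18, 4 of the 8 genes, rose with LPS plus IFNg over no stimulus, and none fell. Of all 13615 genes, 7.97% were called in that comparison, 3.72% higher and 4.25% lower. Values of 5 of the 8 were higher without overlap between the groups (16.1% of all genes), and those of 1, Il1rap, were lower without overlap (20.7%). Against IL4, the same 4 genes and Il18bp were higher and none was lower, where 12.9% of all genes were called, 5.91% higher and 6.96% lower. The count of higher members was 3 without IL4 replicate 2 or 3 or any 1 LPS plus IFNg library, and without LPS plus IFNg replicate 2 Il1r1 was called lower. Those 5 were also higher without overlap (12.4% of all genes), and none was lower without overlap (14.8%). With IL4 against no stimulus, 0 of the 8 passed in limma, where 1.31% of all genes did, 0.514% higher and 0.793% lower. At an unadjusted p of 0.05 in limma, Il1r1 (0.0106) and Il1rn (0.0229) passed, ranking 719th and 1060th of 13615 by p. Many genes reached this threshold, since Casp8, at an unadjusted limma p of 0.051, ranked 1666th. Il1r1 and Il1rn were higher without overlap (11.7% of all genes) and no member was lower (14.7%).

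The median log2 difference for LPS plus IFNg over no stimulus was 3.39 over the 8 members, beside -0.04 over all genes tested, and 4.11 over the 5 members without a group listed at 0. Against IL4 it was 2.75 over the 8 members and over the 6 without such a group, beside 0.00 over all genes. These subsets still held members with some libraries at 0, such as Il1b and Il18bp without stimulus and Il1a and Il18bp with IL4. The comparisons share libraries, and the members were not drawn at random. Setting the mean of 11 housekeeping genes equal moved the median of all genes by 0.50 over no stimulus and by 0.38 over IL4. That mean was 8.74 to 8.80 with LPS plus IFNg, 9.41 and 9.43 without stimulus and 9.18 to 9.53 with IL4. The setting thus raised measured LPS plus IFNg values against both other groups. In both comparisons 5 members were then higher. Of all 13615 genes, 990 were then higher and 286 lower over no stimulus, and 1372 and 508 over IL4. No member that was called changed direction.

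The agonists Il1a and Il1b were at or below 1.07 in 5 of 5 libraries without LPS plus IFNg and high in 3 of 3 with it. Il1b, the secreted agonist, was at 7.69, 8.64 and 8.80 with LPS plus IFNg, at 0.07 and 0 without stimulus, and at 0 in all 3 IL4 libraries. The lowest LPS plus IFNg library stood 7.62 above the highest unstimulated one on the log2 scale, against a range of 1.11 within the LPS plus IFNg group. The fitted log2 difference from no stimulus was 8.34 (SE 0.78, limma adjusted p = 0.00179), the 21st highest of 13615. Its size is uncertain, since the reference mean of 0.03 ± 0.05 (SD, n = 2) lies at the value listed for 8219 to 10210 genes a library, and 74 to 202 genes a library are listed below 0, so 0 is not the bottom of the scale. Against IL4, where Il1b was listed at 0 throughout, no fold is given, and limma's adjusted p was 0.000559.

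Il1a, the agonist that stays largely bound to cells, was at 7.62, 7.78 and 8.43 with LPS plus IFNg and at 0 in both unstimulated libraries (limma adjusted p = 0.00243). In the IL4 group it was at 1.07 in replicate 1 and at 0 in the other 2, and the groups did not overlap (log2 difference 7.58, SE 0.73, adjusted p = 0.000964). Il1a and Il1b were the closest pair among the 8 genes. After each was centred on its own mean, their root mean square difference over the 8 libraries was 0.53. The next closest pair among the 8 genes was Il1rn and Il18, at 0.81. Genes outside the 8 ran closer still, such as Gbp1 to Il1a at 0.44 and Gm14446 to Il1b at 0.38. The distances among Il1a, Il1b, Gbp1 and Gm14446 mostly compare heights with LPS plus IFNg, since these genes were at or below 2.17 elsewhere. An antisense transcript lies opposite each of these agonist genes in GENCODE M21 (Gm14023 and Il1bos), and the libraries are strand specific per the labels' protocols.

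The antagonist Il1rn was expressed in every library and rose with LPS plus IFNg. It was at 11.41, 11.38 and 11.39 with LPS plus IFNg, at 6.76 and 7.81 without stimulus, and at 7.93, 8.39 and 8.20 with IL4. The LPS plus IFNg libraries differed by 0.03 among themselves and none overlapped with another group. The increase over no stimulus was 17.2-fold (95% confidence interval from limma 10.4 to 28.6; log2 difference 4.11, SE 0.31, adjusted p = 0.00103), and over IL4 it was 9.31-fold (5.93 to 14.6; log2 difference 3.22, SE 0.28, adjusted p = 0.000629). With IL4 alone, all 3 libraries were above both unstimulated ones, by as little as 0.12, and the log2 difference of 0.89 did not pass (SE 0.31, adjusted p = 0.294). The table's Il1rn row is 1 RefSeq transcript, so secreted and intracellular forms were not separated.

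**Figure D1:**
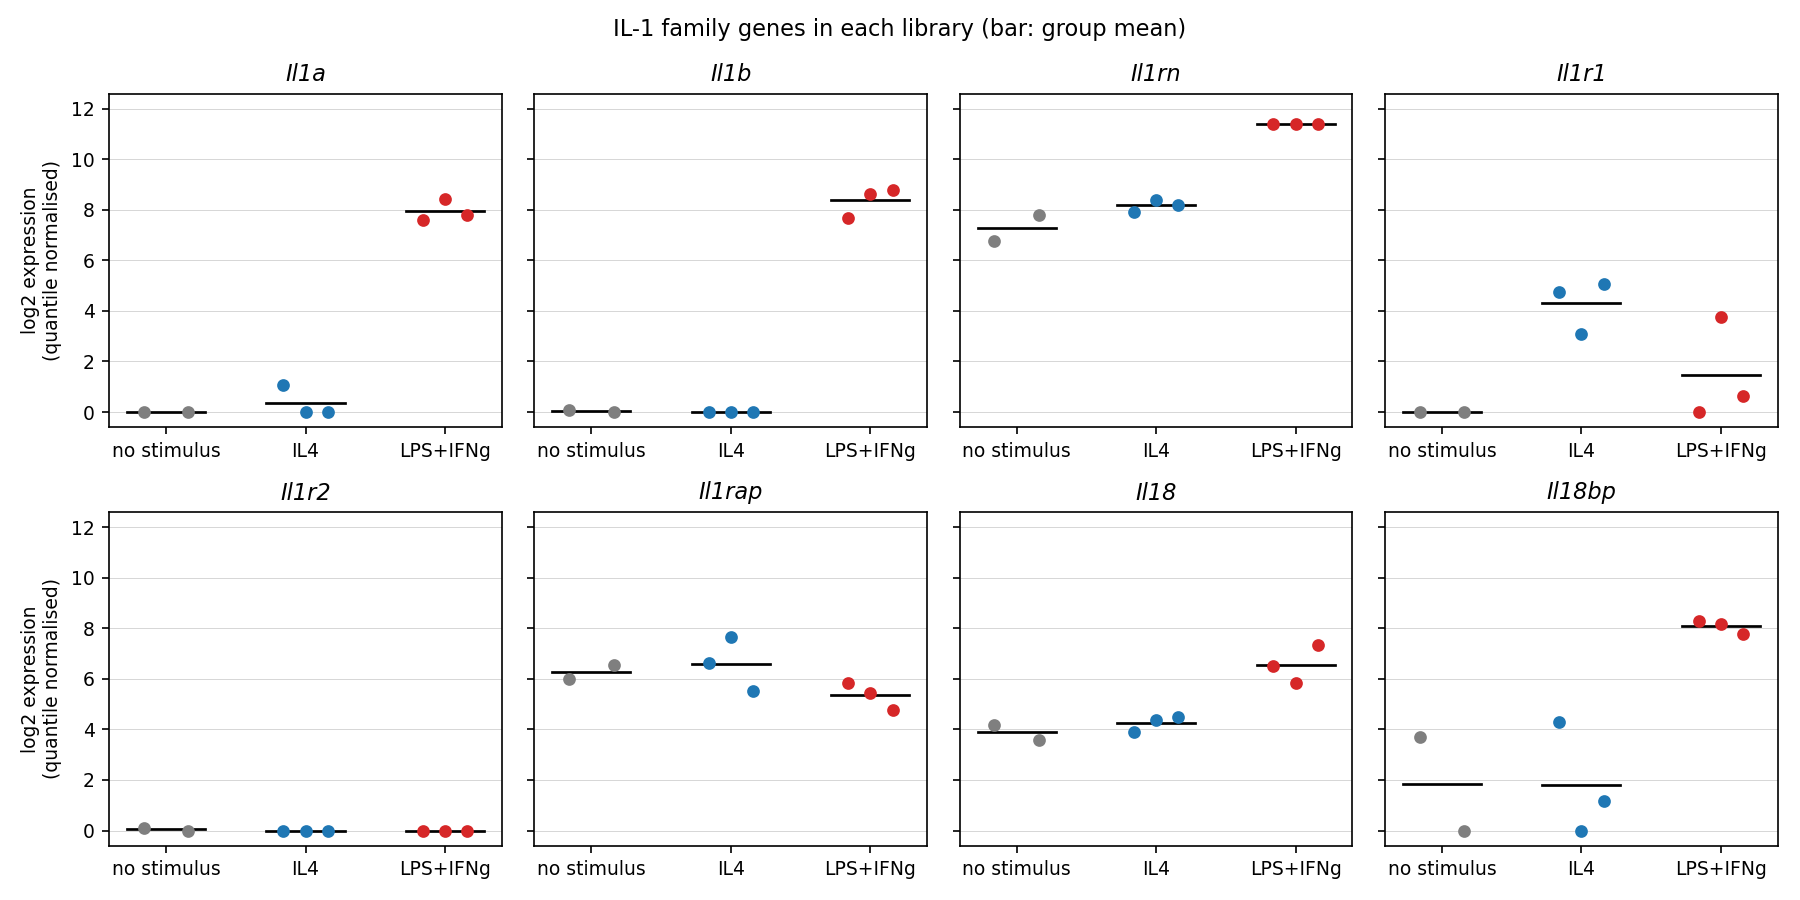
Quantile-normalised log2 expression (y axis) of the 8 genes in each library by group (x axis); each point is 1 library and each bar a group mean. Il1a and Il1b lie between 7.62 and 8.80 in the LPS plus IFNg libraries and at or below 1.07 elsewhere, while Il1r2 does not exceed 0.10 in any library.

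The receptors did not follow the ligands, and none of the 3 receptor genes passed in any comparison. Il1r1, the signalling receptor, read 0 in the 2 unstimulated libraries, stood at 4.74, 3.07 and 5.08 with IL4, and at 0, 3.75 and 0.62 with LPS plus IFNg. The IL4 and unstimulated libraries did not overlap, but the difference did not pass in limma (adjusted p = 0.201, and 0.111 to 0.638 over 14 other fits). LPS plus IFNg and IL4 libraries overlapped through LPS plus IFNg replicate 2 (log2 difference -2.84, SE 1.13, adjusted p = 0.17), and without that library the difference was -3.98 with adjusted p = 0.0373. Fibroblasts also express Il1r1. The summed linear level of 6 fibroblast markers was 2360 to 3135 without stimulus, 1128 to 1675 with IL4 and 1205 to 2375 with LPS plus IFNg. Of these, Col1a1, Col1a2 and Col3a1 had their highest means without stimulus, while Dcn, Pdgfra and Lum had their lowest there. Means without stimulus, with IL4 and with LPS plus IFNg were 4.19, 4.65 and 6.40 for Dcn, 1.99, 3.03 and 3.07 for Pdgfra, and 0, 1.16 and 0.48 for Lum. The part of fibroblasts in the Il1r1 values was not tested.

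Il1r2, the decoy receptor, was at 0.10 in unstimulated replicate 1 and at 0 in the other 7 libraries. Its row held the same values as 22 other rows, so it carried no more than a trace in 1 library. Il1rap, the shared accessory chain, was at 5.99 and 6.54 without stimulus, at 6.62, 7.66 and 5.53 with IL4, and at 5.85, 5.46 and 4.78 with LPS plus IFNg. The LPS plus IFNg libraries were all below the unstimulated ones, and the log2 difference of -0.90 (SE 0.66) did not pass (limma adjusted p = 0.543). Its 95% interval of -2.46 to 0.65 does not exclude a fall or a small rise. Against IL4 the log2 difference was -1.24 (SE 0.59, adjusted p = 0.249).

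Il18 and its soluble inhibitor Il18bp were both highest with LPS plus IFNg. Il18 was at 6.49, 5.83 and 7.33 there, at 4.19 and 3.57 without stimulus, and at 3.90, 4.39 and 4.50 with IL4, with no overlap between LPS plus IFNg and either other group. It rose 6.36-fold over no stimulus (95% interval 2.27 to 17.8; log2 difference 2.67, SE 0.63, limma adjusted p = 0.0469) and 4.89-fold over IL4 (1.95 to 12.3; log2 difference 2.29, SE 0.57, adjusted p = 0.0387). Both calls were lost whichever 1 of the 8 libraries was left out (adjusted p 0.0585 to 0.305 and 0.0506 to 0.137). IL4 gave a log2 difference of 0.38 from no stimulus (SE 0.63, adjusted p = 0.892).

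Il18bp was at 8.30, 8.16 and 7.79 with LPS plus IFNg. It was at 3.71 and 0 without stimulus and at 4.28, 0 and 1.17 with IL4, so each reference group held a library at 0 beside a measured one. Against IL4 it rose by a log2 difference of 6.26 (SE 1.36, adjusted p = 0.0239), a call lost without IL4 replicate 2 or 3 or any 1 LPS plus IFNg library (adjusted p 0.0552 to 0.0763). Against no stimulus a log2 difference of 6.23 (SE 1.52) narrowly missed the threshold in limma (adjusted p = 0.0517), and single libraries moved it both ways. Without unstimulated replicate 1 the difference was 8.08 (adjusted p = 0.0278), and without unstimulated replicate 2 it was 4.37 (adjusted p = 0.209). It also passed without IL4 replicate 1 (adjusted p = 0.033) or 2 (adjusted p = 0.0428), and did not pass without IL4 replicate 3 (adjusted p = 0.0691) or any 1 LPS plus IFNg library (adjusted p 0.118 to 0.133). Il18bp overlaps Numa1, which is read from the opposite strand.

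**Figure D2:**
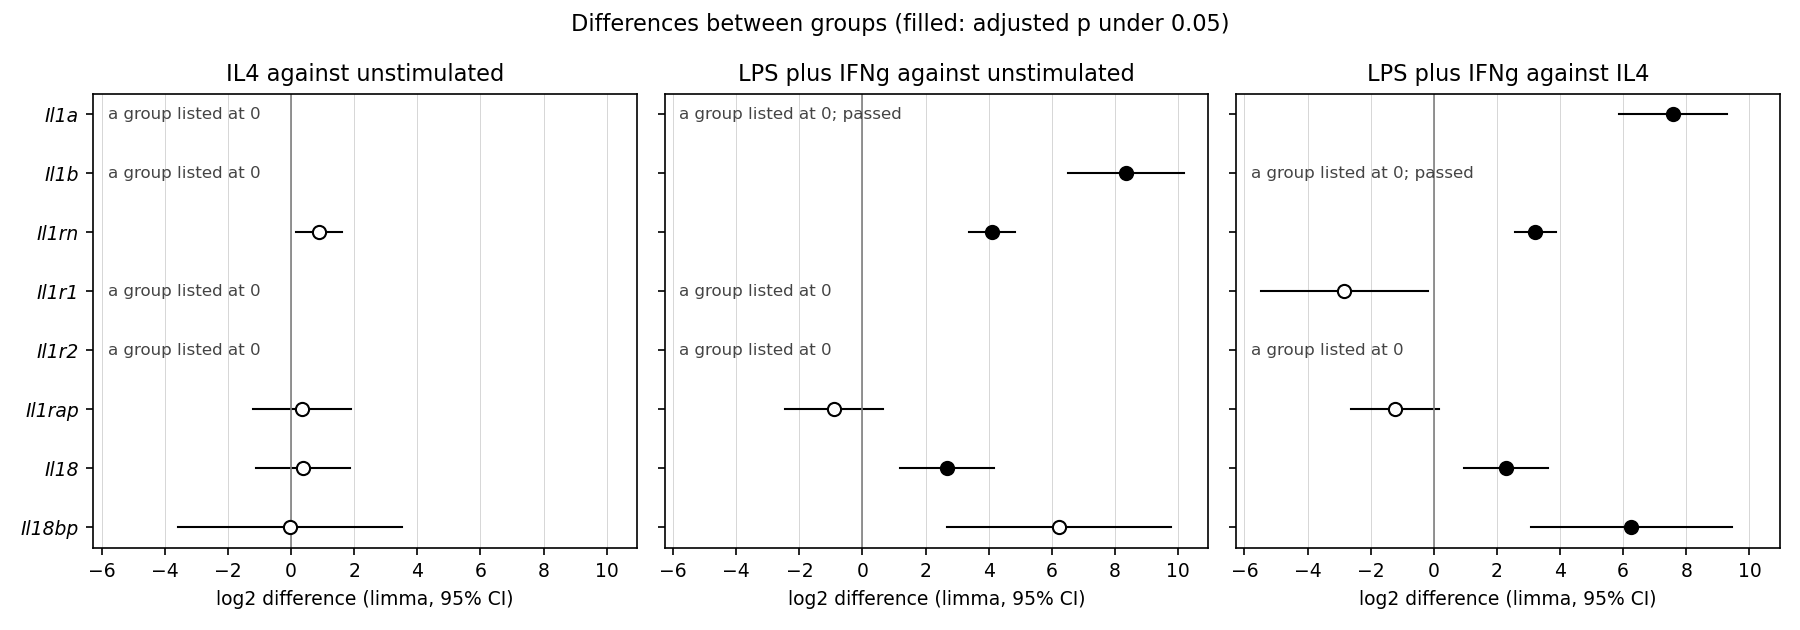
Fitted log2 differences (x axis) of the 8 genes (y axis) in the 3 comparisons, with 95% confidence intervals from limma; filled points passed at an adjusted p of 0.05, and no difference is drawn where a whole group was listed at 0. The interval of Il1rn runs from 3.38 to 4.84 against no stimulus and from 2.57 to 3.87 against IL4, and that of Il18bp against IL4 is far wider, from 3.08 to 9.45.

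Among 13 further ligands and receptors of the family, Il1rl1 was high with IL4 and Il1f9 with LPS plus IFNg, and 7 showed no value. Il33, Il1f5, Il1f8, Il1f10, Sigirr, Il1rapl1 and Il1rapl2 were listed at 0 in all 8 libraries, leaving 6 that were tested. Il1rl1, which encodes ST2, the receptor for IL-33, was at 9.50, 10.27 and 10.47 with IL4, at 4.40 and 2.43 without stimulus, and at 3.02, 0.62 and 0 with LPS plus IFNg. It rose with IL4 by a log2 difference of 6.66 (SE 1.04, limma adjusted p = 0.0328) and was lower with LPS plus IFNg than with IL4 by -8.87 (SE 0.93, adjusted p = 0.00131). The first call was lost without unstimulated replicate 2, LPS plus IFNg replicate 2 or any 1 of the IL4 libraries (adjusted p up to 0.117). Mast cells carry ST2 too; of 8 mast cell and basophil markers, 6 were listed at 0 in every IL4 library, Cpa3, Fcer1a and Ms4a2 among them. The other 2 were Kit, at 0, 3.68 and 3.89 with IL4, and Mcpt8, at 3.76 in IL4 replicate 1 and at 0 in the other 7 libraries. The summed linear level of the 8 was 12.79 to 14.79 with IL4 against 2.579 to 12.96 without stimulus and 0 to 19.61 with LPS plus IFNg, and their part in the Il1rl1 values was not tested.

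Il1f9, an IL-36 cytokine, read 0 in the 2 unstimulated libraries and stood at 5.58, 6.45 and 6.03 with LPS plus IFNg (limma adjusted p = 0.024), with values of 3.13, 0 and 3.47 with IL4. The call over no stimulus was lost without either unstimulated library or any 1 LPS plus IFNg library (adjusted p up to 0.103). Against IL4 the log2 difference of 3.82 did not pass (adjusted p = 0.059). Il1rl2, the IL-36 receptor, was at 5.07, 6.01 and 4.80 with IL4, above the 3.23 and 0 without stimulus, and did not pass (log2 difference 3.68, SE 1.19, adjusted p = 0.257). Il18r1, the ligand-binding chain of the IL-18 receptor, was above 0 only in IL4 replicates 2 and 3, at 3.07 and 4.50. Its partner Il18rap was above 0 only in LPS plus IFNg replicate 3, at 3.74, and Il1f6 only in LPS plus IFNg replicate 2, at 0.62.

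**Figure D3:**
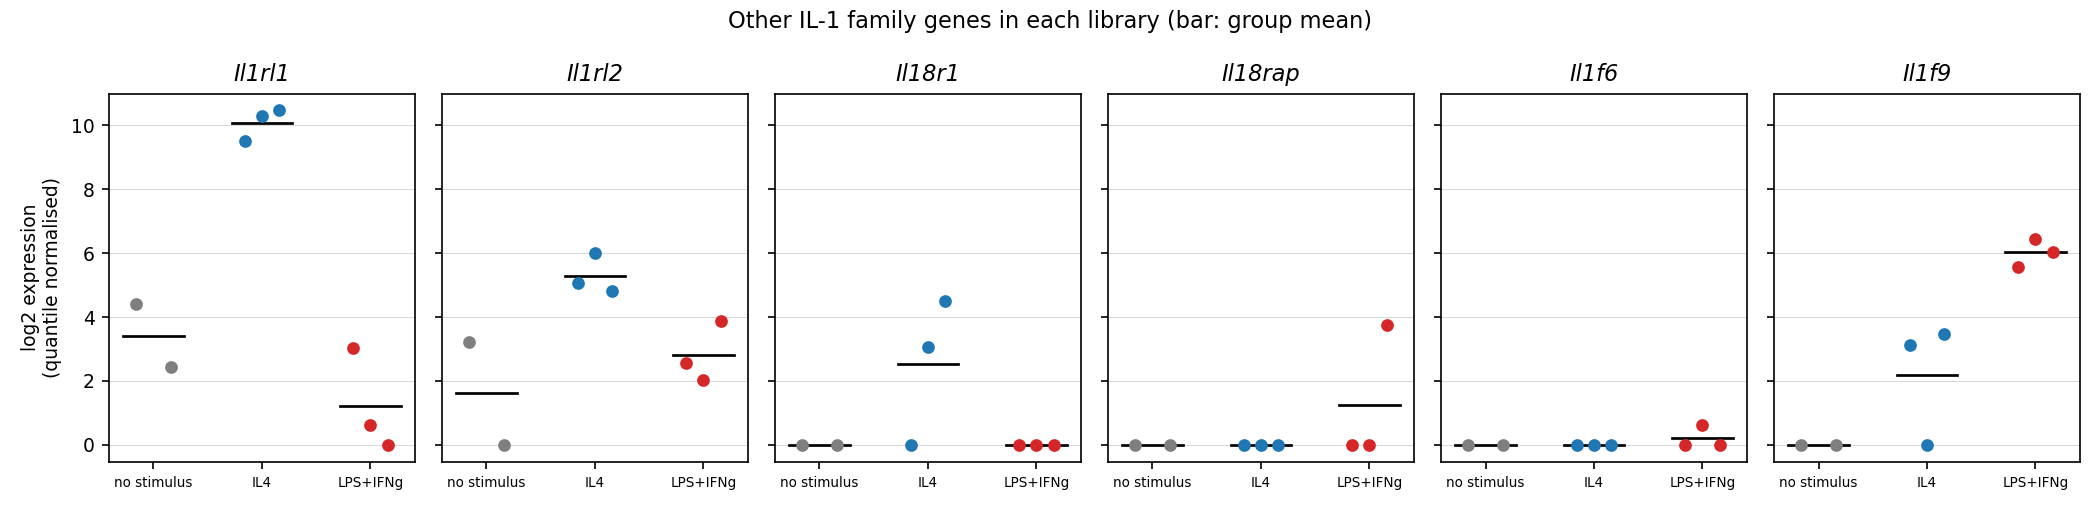
Quantile-normalised log2 expression (y axis) of the 6 further family genes with a value other than 0, in each library by group (x axis); points are libraries and bars group means. Il1rl1 lies at 9.50 to 10.47 in the IL4 libraries and at most at 4.40 elsewhere, and Il1f9 is highest in the LPS plus IFNg libraries.

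Genes that process and release IL-1 and IL-18 were mostly higher with LPS plus IFNg than with IL4 where they passed. Of 21, 8 were higher and 1 lower with LPS plus IFNg than with IL4 (12 and 1 with equal housekeeping means), with a median log2 difference of 1.46, or 1.28 over the 19 without a group listed at 0, beside 0.00 over all genes. Over all genes, 5.91% were higher and 6.96% lower. With equal housekeeping means, 1372 of all 13615 genes were higher and 508 lower. Casp4, the mouse caspase-11 that senses LPS inside the cell, had means of 8.34 ± 0.17 (SD, n = 3) with LPS plus IFNg, 5.27 ± 0.41 (n = 3) with IL4 and 5.20 ± 0.00 (n = 2) without stimulus. It rose over both, by log2 differences of 3.07 (SE 0.31, limma adjusted p = 0.00117) and 3.14 (SE 0.35, adjusted p = 0.00291). Ninj1, which ruptures the plasma membrane in lytic death, was 2.77 higher (SE 0.25, adjusted p = 0.000777), and Mefv, which encodes the sensor pyrin, had a mean of 6.72 ± 0.28 (SD, n = 3) against 0 in all IL4 libraries (adjusted p = 0.00442).

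Casp1, the enzyme that cuts pro-IL-1 beta and pro-IL-18, was at 8.52, 9.95 and 8.70 with LPS plus IFNg against 6.79, 5.55 and 6.62 with IL4. That difference was 2.73 (SE 0.56, adjusted p = 0.0191), and it was lost without LPS plus IFNg replicate 2 (adjusted p = 0.0578). Against no stimulus, where Casp1 was at 6.63 and 8.06, its difference of 1.71 did not pass (adjusted p = 0.182). Nlrp3, the inflammasome sensor, differed between the stimuli by 1.77 (SE 0.43, adjusted p = 0.0369), lost without IL4 replicate 2 or any 1 LPS plus IFNg library (adjusted p up to 0.111). Pycard, the ASC adaptor that joins sensor and caspase, was the gene of the list that was lower, by -1.89 (SE 0.33, adjusted p = 0.0106), at 6.76, 5.86 and 7.15 with LPS plus IFNg against 8.54, 8.40 and 8.52 with IL4. Panx1, a membrane channel, and the sensors Nlrp1b and Naip1 made up the rest of the 8, with Naip1 listed at 0 in all IL4 libraries. Gsdmd, the pore-forming effector, did not pass (log2 difference 3.70, SE 1.36, adjusted p = 0.138).

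Against no stimulus, 3 of the 21 processing genes rose with LPS plus IFNg, Casp4, Mefv and Panx1, and none fell, where 3.72% of all genes rose and 4.25% fell; the median was 0.99 beside -0.04 over all genes. Panx1 rose by 2.06 (SE 0.44, adjusted p = 0.031), lost without unstimulated replicate 1 or any 1 LPS plus IFNg library (adjusted p up to 0.181). The Mefv call (difference 5.11, SE 1.07, adjusted p = 0.0305) was lost without unstimulated replicate 2 or any 1 LPS plus IFNg library (adjusted p up to 0.288). With IL4, Nlrp1b and Ninj1 fell by 2.02 (SE 0.33, adjusted p = 0.0395) and 1.64 (SE 0.28, adjusted p = 0.0464), where 0.793% of all genes fell and 0.514% rose. Neither fall passed whichever 1 of the 8 libraries was left out (adjusted p up to 0.242 and 0.470), nor with equal housekeeping means.

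Among 20 signalling genes below the receptors, 4 were higher with LPS plus IFNg than with IL4 and none lower (5 with equal housekeeping means), where 5.91% of all genes were higher and 6.96% lower. The median was 0.39, or 0.36 over the 19 without a group listed at 0, beside 0.00 over all genes. Over no stimulus 1 of 20 rose, Peli1, a share near the 3.72% of all genes. With equal housekeeping means 3 of 20 rose over no stimulus. In that setting 990 of all 13615 genes were higher over no stimulus and 1372 over IL4. Nfkbiz, the nuclear IkB zeta that IL-1 and LPS signals induce, was listed at 0 in all 3 IL4 libraries and stood at 7.44, 6.30 and 6.45 with LPS plus IFNg (limma adjusted p = 0.000969) and at 5.81 and 6.25 without stimulus. It was thus lower with IL4 than without stimulus (adjusted p = 0.0144), a call lost without either unstimulated library (adjusted p up to 0.181). Peli1, a ubiquitin ligase of IRAK complexes, was 2.58 higher with LPS plus IFNg than with IL4 (SE 0.36, adjusted p = 0.0041). It rose by 1.85 over no stimulus (SE 0.40, adjusted p = 0.0348), a call lost without either unstimulated library, IL4 replicate 1 or any 1 LPS plus IFNg library (adjusted p up to 0.113). Irak3, an IRAK without kinase activity that dampens the pathway, was 2.41 higher than with IL4 (SE 0.37, adjusted p = 0.00583) and 1.33 higher than without stimulus, which did not pass (adjusted p = 0.11). The adaptor Myd88 did not pass in any comparison (differences of -0.55, 0.55 and 1.10). Tab3, an adaptor of the kinase TAK1, completed the 4 (log2 difference 1.95, SE 0.49, adjusted p = 0.0404; when 1 library was left out it passed only without IL4 replicate 3, and the other adjusted p-values reached 0.135).

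**Figure D4:**
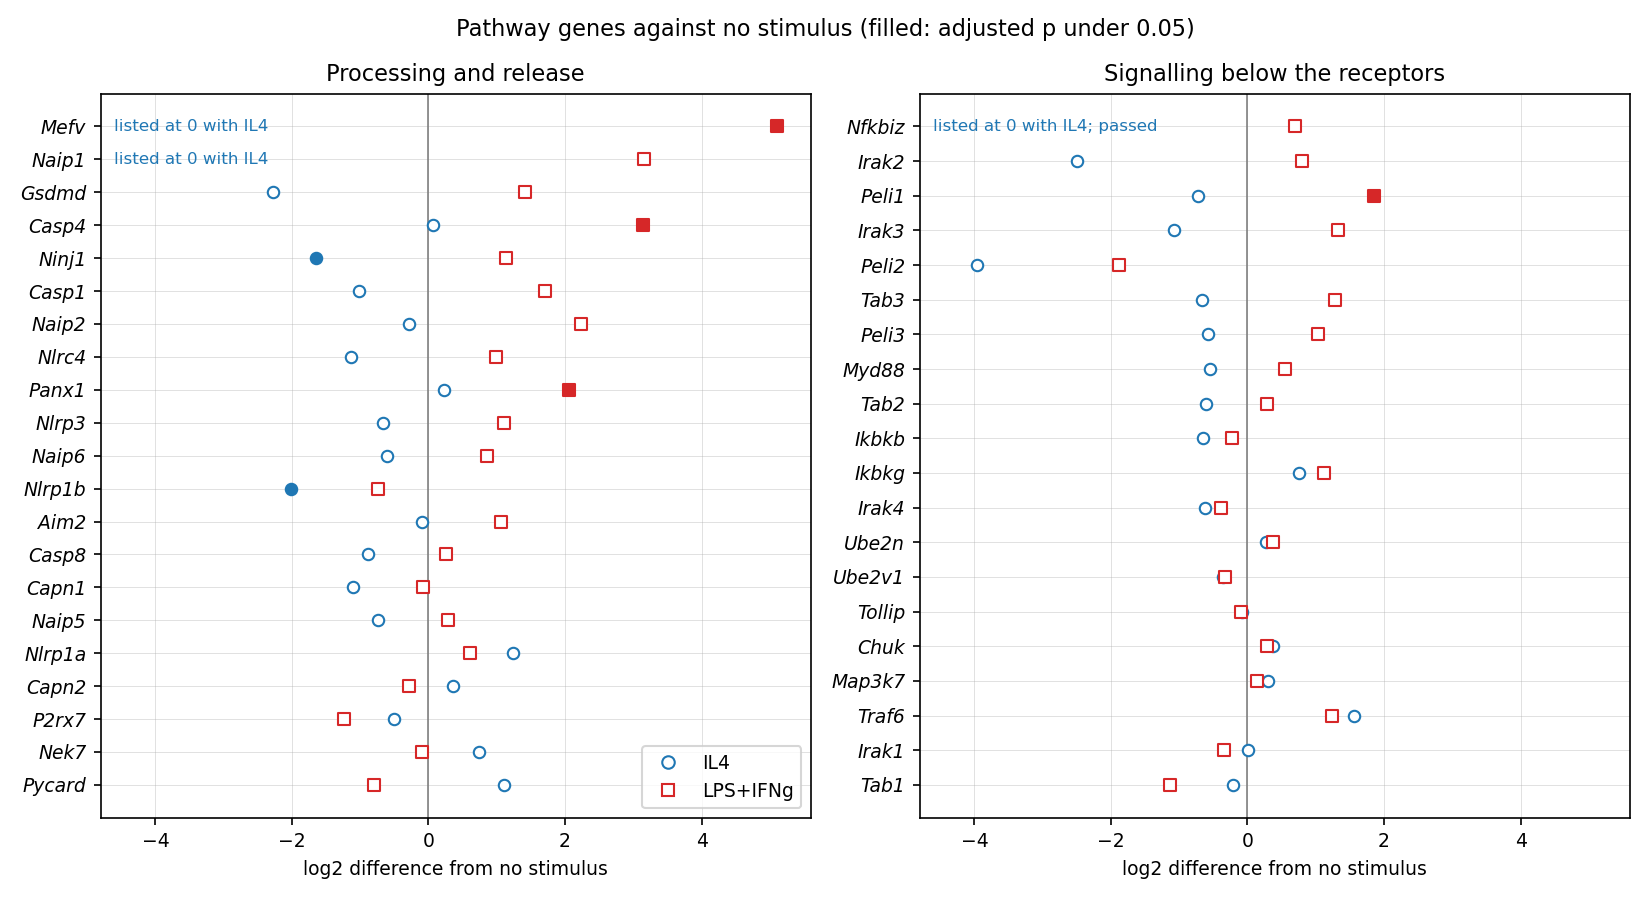
Log2 differences from no stimulus (x axis) of the processing and signalling genes (y axis) with IL4 (circles) and with LPS plus IFNg (squares); filled symbols passed at an adjusted p of 0.05, and genes listed at 0 in all IL4 libraries are marked in words. Mefv at 5.11, Casp4 at 3.14, Panx1 at 2.06 and Peli1 at 1.85 are the filled squares on the right.

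The genes whose values ran closest to each member over the 8 libraries were found by the root mean square difference after centring each gene on its mean, among 8528 other genes with a group mean of at least 5. The nearest of so many candidates lie below the median by construction, so the medians only give the scale. Il1a, Il1b, Il18 and Il18bp reached a group mean of 5 with LPS plus IFNg alone. Il1a, Il1b and their nearest genes were at or below 2.17 in all other libraries, so their distances mostly compare heights with LPS plus IFNg. Nearest to Il1b were Gm14446 (0.38), Cxcl11 (0.46), a chemokine, and Ly6a (0.47), against a median of 4.13 over all candidates. Nearest to Il1a were Gbp1 (0.44), a guanylate-binding protein, Gm14446 (0.47) and Ly6a (0.50), against a median of 3.84. Sod2, the mitochondrial superoxide dismutase, was nearest to Il1rn at 0.23 (median 1.94), with values of 12.07, 12.37 and 12.11 with LPS plus IFNg and 7.98 to 9.06 elsewhere. Pkp4 (0.38), Pdk3 (0.39) and the lactate exporter Slc16a3 (0.40) were nearest to Il18, against a median of 1.48. Il18bp had Nod1, a sensor of bacterial peptides, at 0.55 and no other gene within 1.08 (median 3.44). Il1rap was nearest to Rae1 (0.25), Phb (0.26) and Cirbp (0.30), against a median of 1.05.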

How the data were processed

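Messenger RNA was bound to oligo-dT beads, reverse transcribed with barcoded oligo-dT primers, pooled by Actb qPCR and made into strand-specific 3′ end libraries, per the labels' protocols. TopHat and the mouse build mm9 are named in the submitters' processing notes. No source used here names the counting tool. The authors' deposited values are on the log2 scale and, by the table's name, quantile normalised. How genes without signal were treated is not given in the labels. Each library lists 8219 to 10210 genes at exactly 0 and 74 to 202 genes below 0, so 0 is not the bottom of the scale, and depth is unknown.

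Columns were matched to samples by their labels. Of 20259 rows, 1 had no symbol and 6643 held 1 value in every library, which left 13615 for testing. The fit used limma 3.58.1 (R 4.3.3) with group means over the 8 libraries and an intensity trend (residual degrees of freedom 5, prior 2.31). Its two-sided p-values were adjusted by Benjamini-Hochberg over all 13615 genes, with 0.05 as threshold. The fit was also run on simulated data with known changes. For IL4 against no stimulus it called 37.3% of genes with a log2 change of 2 and 59.7% with a change of 4. For LPS plus IFNg the shares were 26.9% and 62.7% against no stimulus, and 31.3% and 71.6% against IL4. A gene that did not pass may thus still differ. No fold is given where a whole group was listed at 0.

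Members, lists and tests were chosen with earlier results of these data known. The named genes are the 8 members, further family genes not at 0 throughout, up to 3 called genes of smallest p per list and comparison, a fixed set of pathway genes, and the 3 nearest genes per member. Tab3, Naip1, the TATA box search and the chromosome 1 run were added after values or sequences were seen.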

Additional observations from a re-analysis of the deposited data

How the results depend on the processing

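The other settings left out the intensity trend or the uncompared group, left out genes with a mean under 5, added 1 on the linear scale, set values below 0 to 0, or used equal housekeeping means (values listed at 0 kept at 0), an adjusted p of 0.01, a block for replicate number, or 7 of the 8 libraries. Il1a, Il1b and Il1rn passed over no stimulus and over IL4 in every one of these fits that held them; Il1a and Il1b have means under 5 and left the test with that filter, so the members called were then 2 in each LPS plus IFNg comparison. At an adjusted p of 0.01 the members called over IL4 were 3. With 1 library left out, they were 3 to 4 over IL4 (1 of them Il1r1, lower, without LPS plus IFNg replicate 2), 3 to 4 over no stimulus, and 0 for IL4. No member that was called changed direction, and Il18 over no stimulus passed in 3 of 15 other fits. Of all genes, IL4 against no stimulus called 7 with only 2 groups in the fit, 271 with the filter on means, 10 at an adjusted p of 0.01, and 36 to 145 with 1 library left out (36 and 43 without unstimulated replicates 2 and 1, 81, 92 and 113 without LPS plus IFNg replicates 2, 3 and 1, and 115 without IL4 replicate 1). LPS plus IFNg against no stimulus called 438 at 0.01 and 417 to 1154 with 1 library left out (417, 488 and 716 without unstimulated replicates 2 and 1 and LPS plus IFNg replicate 2), and against IL4 806 at 0.01. Where 1 unstimulated library was left, it was assumed to vary like the other groups. The cause of these shifts was not tested. Depth cannot be read from these values, so a gene listed at 0 may be expressed below detection.

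The replicate number as a block gave 8 called genes for IL4 and 511 for LPS plus IFNg against no stimulus. Deviations of same-numbered libraries from their group means correlated at -0.08 to 0.07. The deviations of the 2 unstimulated libraries mirror each other by construction. These correlations therefore cannot show whether same-numbered libraries share an animal, culture or batch, which the labels do not give. With the block, Il18 did not pass over no stimulus (adjusted p = 0.148) or over IL4 (0.0774).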

Other observations

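In the RefSeq order on chromosome 1, Il1r2, Il1r1, Il1rl2, Il1rl1, Il18r1 and Il18rap follow each other with 1 long non-coding RNA gene and 1 pseudogene between them, neither of which is a row matched here. Inside this run, the 4 middle genes had higher means with IL4 than without stimulus, and the outer 2 were at 0 in all IL4 libraries. Group means with IL4 were 4.30 for Il1r1, 5.29 for Il1rl2, 10.08 for Il1rl1 and 2.52 for Il18r1, beside 0, 1.62, 3.42 and 0 without stimulus and 1.46, 2.82, 1.21 and 0 with LPS plus IFNg. Of the 6, Il1rl1 alone passed for IL4 against no stimulus in limma (adjusted p = 0.0328), where 1.31% of all genes did. The run was picked out after its values were seen.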
